A study of Mus musculus with 12 samples.

Results

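The genes described here are 10 heat shock genes measured in mouse optic nerve: Hspa1a, Hspa1b, Hsph1, Dnajb1, Hspb1, Hsp90aa1, Hspa8, Bag3, Hspd1 and Hspe1. They were chosen by name, as the rows of the deposited count table that carry these symbols, and they make up 10 of its 35275 genes. All 10 were found once and passed the filter on low counts. Hspd1 and Hspe1 encode chaperonins of the mitochondrial matrix, so the name "cytosolic heat shock genes" holds for the products of the other 8.

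Poly(A) RNA was sequenced from optic nerve of mice that model neurofibromatosis type 1, the NF1 disorder, in 12 libraries. The saline group (phosphate-buffered saline, PBS) has 6 libraries. Carboplatin, which forms platinum cross-links in DNA, and selumetinib, which blocks the kinases called MEK of the RAS pathway, have 3 each. All 12 libraries carry the NF1 label, the saline controls included, and no wild-type nerve was used here. The Nf1 allele, any Cre driver, strain, age, sex, dose, schedule and time of collection are not given in the sources used. No label states whether each library is its own animal, so the p-values speak only of the spread among these libraries, some of which may be technical. Libraries are numbered 1 to 6 in their titles and are given as PBS 1 to 3 and PBS 4 to 6, which share 1 treatment label and which no label calls batches.

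Heat shock proteins keep other proteins folded. In unstressed cells the transcription factor HSF1 is held inactive by chaperones. When unfolded proteins draw the chaperones away, HSF1 forms trimers, binds heat shock elements in promoters and raises transcription of the inducible members, among which the HSP70 genes Hspa1a and Hspa1b are the classic examples. Hspa8 is the HSP70 that cells make without stress. In white matter, the small heat shock protein alpha B-crystallin is known from glia.

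A heat shock element is a row of GAA units in alternating orientation. The RefSeq promoter table (GRCm38.p6) held entries for 8 of the 10 genes and none for Hsp90aa1 and Hspa8. The 250 bases before each listed start were searched for pairs of units, written GAANNTTC or TTCNNGAA. Each reads the same on both strands, and neighbouring pairs can share a unit. A pair was present before Hspa1a, Hspa1b, Hsph1, Hspb1, Hspe1 and 1 of the 2 listed starts of Hspd1, and no pair was found in these windows of Dnajb1 and Bag3. Over all 32851 promoter windows of this length, 12.8% held a pair and 0.466% held 3 alternating units. A match of letters is a description and does not show that a factor binds there. The 60-base windows around the matches are shown because they show how the 10 genes differ in this element, with the matched units in capitals.

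Hspa1a, chr17:34972228-34972287, minus strand: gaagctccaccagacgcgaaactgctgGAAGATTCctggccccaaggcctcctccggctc
Hspa1b, chr17:34959310-34959369, minus strand: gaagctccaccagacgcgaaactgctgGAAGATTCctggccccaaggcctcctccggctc
Hsph1, chr5:149636337-149636396, minus strand: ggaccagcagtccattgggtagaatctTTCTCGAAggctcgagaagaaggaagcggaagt
Hspb1, chr5:135887785-135887844, plus strand: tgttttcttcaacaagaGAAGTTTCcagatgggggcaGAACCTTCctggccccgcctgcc
Hspe1, chr1:55088037-55088096, plus strand: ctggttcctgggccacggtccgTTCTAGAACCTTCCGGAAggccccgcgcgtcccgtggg
Hspd1, chr1:55088039-55088098, minus strand: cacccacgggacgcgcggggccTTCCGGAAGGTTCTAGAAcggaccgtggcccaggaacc

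The windows of Hspa1a and Hspa1b are identical, with the pair at bases -104 to -97 from each start. Hspb1 holds 2 separate pairs, at -117 to -110 and -97 to -90. Hspd1 and Hspe1 lie on opposite strands. The second listed Hspd1 start lies 216 bases from the Hspe1 start and is head to head with it, and 1 stretch of alternating units that reads on either strand lies between them. The first listed Hspd1 start lies 95 bases past the Hspe1 start, so that these transcripts overlap, and it has no units before it. Theirs is the only window among the 8 genes with 3 alternating units.

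**Figure D1:**
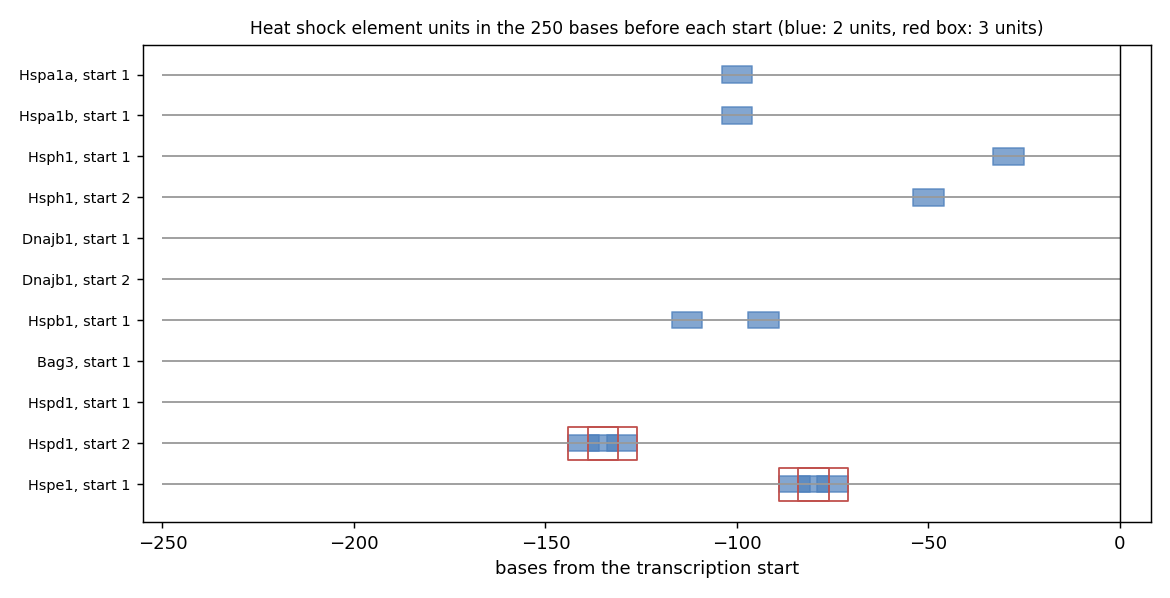
Position of heat shock element units in the 250 bases before each RefSeq start of the 8 genes with an entry (x axis: bases from the start; blue bars: pairs of units; red boxes: 3 alternating units). The units lie between bases -144 and -26, and the rows of Dnajb1, Bag3 and the first Hspd1 start hold none.

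Libraries held 21793052 to 33375754 counts, and levels are CPM, read counts relative to the library size after scaling with TMM factors (trimmed mean of M values, which equalises libraries over most genes). The factor was 0.728 for PBS 1 and 0.877 to 1.15 for the others. A lower factor raises the CPM of a library, so the ranks given for PBS 1 are those after scaling. Libraries of the same group differed in summed cell type markers. The 12 skeletal muscle markers took 6.33% of the counts of PBS 1 and at most 0.247% elsewhere. The 10 neuron markers took 0.224% and 0.249% of the counts of selumetinib 1 and 2, and between 0.00607% and 0.0639% in the other 10. The 10 markers of mature oligodendrocytes, the myelinating cells that the tissue label calls for, were detected in every library, at 2.06% in PBS 1, 3.07% in selumetinib 1, 2.18% in selumetinib 2 and 5.02% to 8.32% in the other 9. In whole nerve, fewer cells of a type and less RNA per cell cannot be told apart. PBS 1, selumetinib 1 and selumetinib 2 therefore stand apart, and values without them are given beside the results that they move most and in the accounts of the drug comparisons. The 5 red blood cell markers took 0.00124% to 0.00808% of the counts with carboplatin, 0.0246% to 0.0926% in PBS 1 to 3, 0.224% to 0.819% in PBS 4 to 6 and 0.0724% to 0.161% with selumetinib. The 4 fibroblast markers took 0.0274% to 0.0655% with carboplatin, 0.0697% to 0.127% in PBS and 0.0268% to 0.125% with selumetinib. Muscle markers were at 0.0135% to 0.247% with carboplatin, at least 0.0278% in PBS 1 to 3 and at most 0.00100% in PBS 4 to 6 and with selumetinib. The 8 photoreceptor markers took 0.00359% to 0.145% with carboplatin, at most 0.0138% in PBS and at most 0.000257% with selumetinib. No red blood cell or fibroblast marker was at 0 in any library.

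Per kilobase of exon, Hspa8 had the highest level in the PBS nerves, 211 CPM per kb, followed by Hsp90aa1 at 148. Hspb1 (65.7), Hspd1 (56.5) and Hspe1 (49.3) came next, then Bag3 (28.8), Hsph1 (14.3), Hspa1b (13), Dnajb1 (9.91) and Hspa1a (6.82), all in CPM per kb as means of 6 libraries. The ranges over the 6 PBS libraries of each pair of neighbours in this order overlap. Hspa8 ran from 135 to 342 and Hsp90aa1 from 58.4 to 206 CPM per kb. The constitutive HSP70 and the HSP90 stood above the stress-inducible HSP70 genes in mean level per length.

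**Figure D2:**
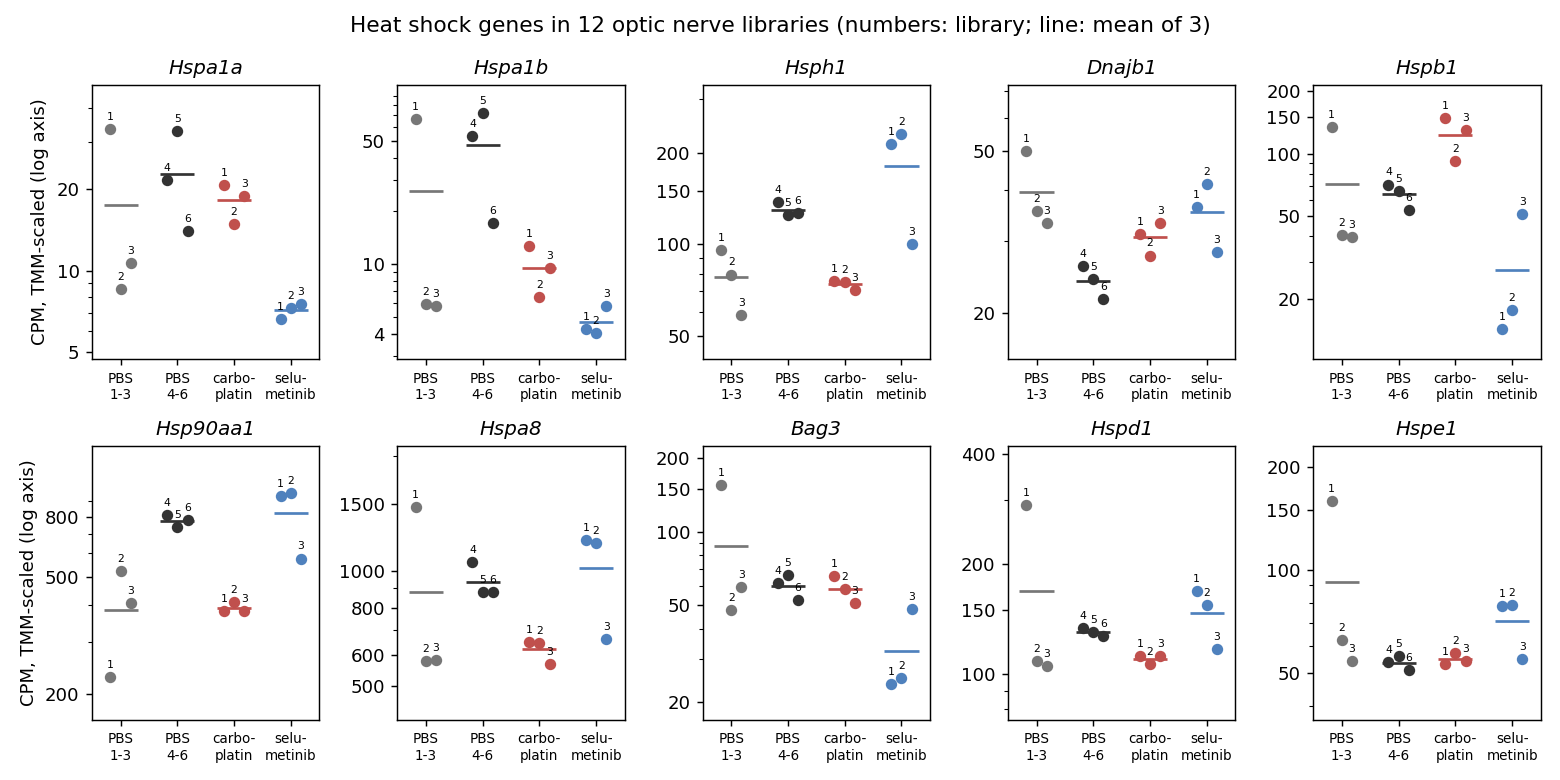
CPM of the 10 genes in each of the 12 libraries (log y axis, points labelled with the library number, line: mean of 3), by PBS 1 to 3, PBS 4 to 6, carboplatin and selumetinib. The 3 carboplatin points lie close together for most genes, whereas PBS 1 is far above the other PBS points for Bag3, Hspd1 and Hspe1, and selumetinib 3 stands apart from selumetinib 1 and 2 for Hsph1, Hspb1 and Bag3.

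Of the inducible HSP70 genes, Hspa1a (ENSMUSG00000091971, chr17:34969190-34972156 on the minus strand, mm10, 1 exon) was at 33.6, 8.54, 10.7, 21.7, 32.9 and 14.1 CPM in PBS 1 to 6. It was at 20.9, 15 and 18.9 CPM in carboplatin 1 to 3 and at 6.62, 7.28 and 7.57 CPM in selumetinib 1 to 3. All 3 selumetinib libraries were below all 6 PBS libraries, and the carboplatin libraries fell inside the PBS range. The log2 fold change between selumetinib and PBS was -1.50 ± 0.44 (SE), or 2.83-fold lower (edgeR quasi-likelihood test, adjusted p = 0.0998), and did not pass the threshold of 0.05. It was -1.41 without selumetinib 1 and 2, which leaves 1 selumetinib library (adjusted p = 1).

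Hspa1b (ENSMUSG00000090877, chr17:34956436-34959238 on the minus strand, 1 exon), the neighbouring copy, varied most of the 10. It was at 66.2, 5.86, 5.77, 52.9, 71.6 and 17.0 CPM in PBS 1 to 6, at 12.6, 6.44 and 9.38 CPM with carboplatin and at 4.25, 4.01 and 5.77 CPM with selumetinib. PBS 1, 4 and 5 were high, while PBS 2 and 3 were below the carboplatin libraries and overlapped the selumetinib ones. The highest PBS library held 12.4-fold the lowest, against 1.96-fold among carboplatin and 1.44-fold among selumetinib libraries. The log2 fold change against PBS was -2.97 ± 0.88 for selumetinib (edgeR, adjusted p = 0.102) and -1.95 ± 0.82 for carboplatin (edgeR, adjusted p = 0.268). With PBS 2 and PBS 3 as the only controls, a choice made after the data were seen, the carboplatin value was 0.71.

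The coding sequences of Hspa1a and Hspa1b are 99.4% identical, and 82.4% of the 50-base coding windows of Hspa1a also occur in Hspa1b, so reads of either gene may have been split or dropped in counting and each gene's value is uncertain. Hspa1a also overlaps the exons of Gm20481 on the opposite strand over 564 bases, and the strand setting of the counting is not given in the sources used. The ratio of Hspa1b to Hspa1a counts was 1.97, 2.43, 2.18 and 1.21 in PBS 1, 4, 5 and 6 and between 0.431 and 0.763 in the other 8 libraries. Summed into 1 row, the pair was at 99.8, 14.4, 16.4, 74.6, 104 and 31.1 CPM in PBS 1 to 6, at 33.5, 21.4 and 28.2 CPM with carboplatin and at 10.9, 11.3 and 13.3 CPM with selumetinib. The sum was lower in all 3 selumetinib libraries than in any other library. Its log2 fold change was -2.26 ± 0.66 between selumetinib and PBS (edgeR, adjusted p = 0.100) and 1.23 ± 0.69 between carboplatin and selumetinib (edgeR, adjusted p = 0.250).

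Hspa8 (ENSMUSG00000015656, chr9:40800984-40810087 on the plus strand), the constitutive HSP70, was at 1470, 579, 584, 1052, 881 and 880 CPM in PBS 1 to 6. It was at 650, 648 and 569 CPM with carboplatin and at 1208, 1185 and 664 CPM with selumetinib. PBS 1 was highest, while PBS 2, PBS 3, the carboplatin libraries and selumetinib 3 formed the low end, between 569 and 664 CPM. The difference between carboplatin and selumetinib was -0.71 ± 0.36 on the log2 scale (edgeR, adjusted p = 0.198), and -0.11 without selumetinib 1 and 2 (adjusted p = 0.972). Hspa8 also hosts the small nucleolar RNA genes Snord14c, Snord14d and Snord14e on its own strand.

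Hsph1 (ENSMUSG00000029657, chr5:149614287-149636376 on the minus strand) encodes HSP110, which exchanges the nucleotide of HSP70. It was at 96.1, 79.5, 58.7, 137, 125 and 127 CPM in PBS 1 to 6, at 75.6, 75.4 and 70.5 CPM with carboplatin and at 213, 231 and 100 CPM with selumetinib. Every carboplatin library was below every selumetinib library, and selumetinib 1 and 2 were above every other library. Between the drugs Hsph1 was 2.46-fold lower with carboplatin, with a log2 fold change of -1.30 ± 0.35 that passed the threshold (edgeR, adjusted p = 0.0366). Without selumetinib 1 and 2 together the value was -0.46 (adjusted p = 0.782). The call was also lost without any 1 of carboplatin 1, 2 or 3 or selumetinib 1 or 2, with values between -1.61 and -1.13 over the 12 fits that leave out 1 library.

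Dnajb1 (ENSMUSG00000005483, chr8:83608193-83612653 on the plus strand) encodes an HSP40 that delivers clients to HSP70 and stimulates its ATPase. It was at 49.9, 35.6, 33.2, 26, 24.3 and 21.6 CPM in PBS 1 to 6, at 31.2, 27.6 and 33.2 CPM with carboplatin and at 36.3, 41.4 and 28.2 CPM with selumetinib. It varied least of the 10, by 2.31-fold between the highest and lowest of 12 libraries, and all of PBS 4 to 6 were below every other library. The log2 fold change was -0.05 ± 0.25 for carboplatin against PBS and 0.15 ± 0.24 for selumetinib against PBS (edgeR, adjusted p = 0.940 and 0.708).

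Hsp90aa1 (ENSMUSG00000021270, chr12:110690605-110702728 on the minus strand), the inducible cytosolic HSP90, was at 230, 525, 407, 809, 739 and 776 CPM in PBS 1 to 6. It was at 383, 412 and 384 CPM with carboplatin and at 940, 958 and 577 CPM with selumetinib. PBS 4 to 6 lay above PBS 1 to 3, and the carboplatin libraries fell among PBS 1 to 3. PBS 1, the highest library for 6 of the other genes, was the lowest of all 12 for Hsp90aa1. Between the drugs the log2 fold change was -1.07 ± 0.41 (edgeR, adjusted p = 0.101), and -0.57 without selumetinib 1 and 2 (adjusted p = 0.820).

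Bag3 (ENSMUSG00000030847, chr7:128523616-128546981 on the plus strand), a cochaperone that links HSP70 and small heat shock proteins to autophagy, was at 155, 47.8, 59.1, 61.6, 66.2 and 52.3 CPM in PBS 1 to 6. It was at 65.6, 58.1 and 50.8 CPM with carboplatin and at 23.7, 25 and 48.2 CPM with selumetinib. Selumetinib 1 and 2 held less than any other library, and selumetinib 3 overlapped the PBS range. The log2 fold change between selumetinib and PBS was -1.19 ± 0.40 (edgeR, adjusted p = 0.123). It was -0.60 without selumetinib 1 and 2 and -0.26 without PBS 1 as well (adjusted p = 1 in both).

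Hspb1 (ENSMUSG00000004951, chr5:135887919-135889563 on the plus strand) encodes the small heat shock protein HSP25/HSP27, which holds unfolded proteins and binds the cytoskeleton. It was at 135, 40.5, 39.9, 71.1, 66.3 and 53.9 CPM in PBS 1 to 6, at 148, 91.9 and 131 CPM with carboplatin and at 14.4, 17.6 and 51.1 CPM with selumetinib. Apart from PBS 1, every PBS library was below every carboplatin library, and selumetinib 1 and 2 were below every other library. Between the drugs Hspb1 was 4.46-fold higher with carboplatin, with a log2 fold change of 2.16 ± 0.56 that passed the threshold (edgeR, adjusted p = 0.0314). Without selumetinib 1 and 2 together the value was 1.26 (adjusted p = 0.612). The call was lost without any 1 of the same 5 libraries, with values between 1.82 and 2.92 over the 12 fits. Against PBS the carboplatin value was 0.87 ± 0.45 (edgeR, adjusted p = 0.369). With PBS 1, selumetinib 1 and selumetinib 2 left out it was 1.16 and passed (adjusted p = 0.0118).

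The mitochondrial pair had similar patterns across the libraries. Hspd1 (ENSMUSG00000025980, chr1:55077835-55088243 on the minus strand), which encodes HSP60, was at 291, 109, 105, 134, 130 and 127 CPM in PBS 1 to 6, at 112, 106 and 112 CPM with carboplatin and at 169, 154 and 117 CPM with selumetinib. Hspe1 (ENSMUSG00000073676, chr1:55088132-55091307 on the plus strand), which encodes its lid HSP10, was at 159, 62.1, 53.9, 53.6, 55.9 and 50.9 CPM in PBS 1 to 6, at 53.1, 57.0 and 53.9 CPM with carboplatin and at 78.3, 78.7 and 54.9 CPM with selumetinib. PBS 1 was highest for both, selumetinib 1 and 2 came next, and the other 9 libraries lay close together. The Hspd1 to Hspe1 ratio of counts stayed between 1.75 and 2.5 in all 12 libraries, but differed between the sets of PBS libraries. It was 1.83, 1.75 and 1.94 in PBS 1 to 3 and 2.50, 2.33 and 2.50 in PBS 4 to 6. Without PBS 1, the log2 fold change of PBS 4 to 6 against PBS 1 to 3 was 0.29 for Hspd1 and -0.11 for Hspe1. The annotated exons of the genes overlap by 112 bases on opposite strands.

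The 10 genes did not vary as 1 block across the libraries. Summed over the 10 after TMM scaling, PBS 1 (2687 CPM), selumetinib 1 (2694 CPM) and selumetinib 2 (2702 CPM) were alike and highest. Their TMM factors were 0.728, 1.11 and 1.15, so scaling raised the levels of PBS 1 and lowered those of selumetinib 1 and 2. The likeness of these sums therefore depends on the scaling. PBS 1 was high in Hspa1a, Hspa1b, Bag3 and Hspb1 and low in Hsp90aa1, and selumetinib 1 and 2 were the reverse. These 3 libraries are also those with the lowest oligodendrocyte marker shares, PBS 1 with the most muscle and selumetinib 1 and 2 with the most neuron markers. The part of these marker shares in the levels was not tested.

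**Figure D3:**
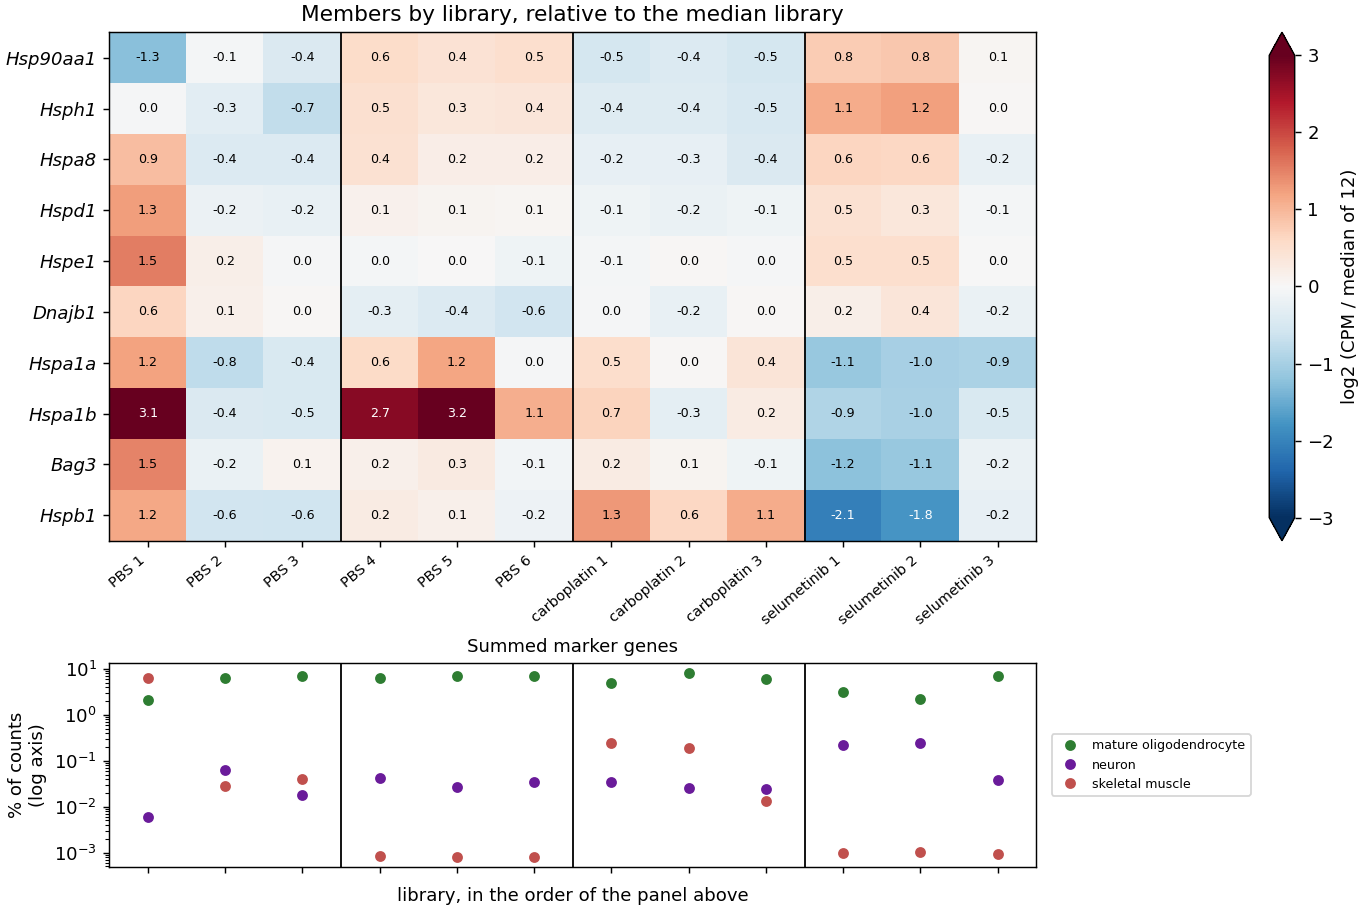
Upper panel: log2 of each gene's CPM over its median of the 12 libraries (rows: genes, columns: libraries, red above and blue below the median). Lower panel: summed share of counts of 3 marker lists in the same libraries (log y axis). PBS 1, with 6.33% muscle markers, is above the median in 8 of the 10 genes, and selumetinib 1 and 2, with the most neuron markers, are above it in 6 and below it in 4.

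For carboplatin against PBS, the question was what the DNA-damaging drug does to the nerve of the model. Of the 10 heat shock genes 0 passed the threshold, against 2.09% of the 18344 genes tested (383 genes, 288 higher and 95 lower). With p unadjusted and under 0.05 the count was 1 (Hspa1b, lower), against 16.5% of all genes. DESeq2 called 0, against 8.99% of all genes with an adjusted p, and limma voom with quality weights called 4, against 29.6%. For none of the 10 did the carboplatin and PBS libraries lie apart, against 12.2% of all genes. Values were negative for 9 of the 10, Hspb1 being the exception. Their median log2 fold change was -0.42, beside -0.11 over all genes. With PBS 1, selumetinib 1 and selumetinib 2 left out, Hspb1 was called higher and Hsp90aa1 lower (-0.75, adjusted p = 0.0439), 2 of the 10 against 15.9% of all genes. In that fit Hspd1 went from -0.44 to -0.16, Hspe1 from -0.41 to -0.04 and Bag3 from -0.34 to -0.0048, none of them called. Red blood cell and fibroblast markers were lower in every carboplatin library than in any PBS library, and their part in these values was not tested.

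The values depended on which saline libraries served as controls. For Hsp90aa1 the carboplatin value was 0.02 ± 0.29 against PBS 1 to 3 and -0.98 ± 0.29 against PBS 4 to 6 (edgeR, adjusted p = 0.980 and 0.108). For Hsph1 it was -0.08 ± 0.28 and -0.81 ± 0.28 (adjusted p = 0.908 and 0.152). For Hspe1 it was -0.75 ± 0.35 and 0.03 ± 0.35 (adjusted p = 0.328 and 0.973). For Hspb1 the values were closer, at 0.78 ± 0.56 and 0.95 ± 0.56 (adjusted p = 0.494 and 0.383), but this likeness depended on PBS 1. Hspb1 was at 135 CPM in PBS 1, 40.5 and 39.9 CPM in PBS 2 and 3, and 53.9 to 71.1 CPM in PBS 4 to 6. Its log2 fold change in PBS 4 to 6 against PBS 1 to 3 was -0.17, and 0.67 without PBS 1.

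Selumetinib was compared with the same 6 PBS libraries, so its values and those of carboplatin share their controls. Of the 10 genes 0 passed, and 0% of all genes passed in edgeR. With p unadjusted and under 0.05 there were 5, Hspa1a, Hspa1b, Bag3 and Hspb1 lower and Hsph1 higher, against 24.0% of all genes. DESeq2 called 4 (Hspa1a, Hspa1b, Hspb1 and Bag3, all lower), against 13.7% of all genes with an adjusted p, and limma voom with quality weights called 8, against 55.3%. The selumetinib and PBS libraries lay apart for 1 of the 10, Hspa1a, against 5.93% of all genes. The median log2 fold change was -0.03, beside -0.09 over all genes. Without selumetinib 3, edgeR called Hsph1 (1.13), Hspb1 (-2.03) and Bag3 (-1.55), against 21.6% of all genes. Without PBS 1, selumetinib 1 and selumetinib 2, Hspb1 went from -1.29 to -0.10 and Hsph1 from 0.80 to -0.08, while Hspa1a was -1.22 and Hspa1b -2.41 (adjusted p = 1 for all 4).

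As for carboplatin, the control set mattered. Against PBS 1 to 3 the selumetinib value of Hsp90aa1 was 1.09 ± 0.29 and that of Hsph1 1.22 ± 0.28 (edgeR, adjusted p = 0.0998 for both). Against PBS 4 to 6 they were 0.09 ± 0.29 and 0.48 ± 0.28 (adjusted p = 0.892 and 0.380). Hspa1a was low against either set, at -1.30 ± 0.48 and -1.68 ± 0.49 (adjusted p = 0.129 and 0.271).

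Carboplatin and selumetinib were compared directly. Of the 10 genes, 2 passed the threshold, Hspb1 higher and Hsph1 lower with carboplatin, beside 14.0% of all genes (2568 genes, 1036 higher and 1532 lower). The carboplatin and selumetinib libraries did not overlap for 8 of the 10, against 41.7% of all genes. With carboplatin Hspa1a, Hspa1b, Hspb1 and Bag3 were the higher 4, and Hsph1, Hsp90aa1, Hspa8 and Hspd1 the lower 4. The median log2 fold change was -0.29, beside -0.01 over all genes. Hspa1a was 2.55-fold higher with carboplatin (1.35 ± 0.48, edgeR, adjusted p = 0.0808). The count of 2 calls depended on single libraries. It was 0 without any 1 of carboplatin 1, carboplatin 2, carboplatin 3, selumetinib 1 or selumetinib 2, and 6 without PBS 1, where 33.0% of all genes passed. DESeq2 called 4, against 26.9% of all genes with an adjusted p, and limma voom with quality weights 8, against 58.6%. Without selumetinib 1 and 2 together, Hspa1a was 1.25, Hspa1b 0.70, Bag3 0.26 and Hspd1 -0.11, none of them called. Red blood cell and neuron markers were lower, and astrocyte, muscle and photoreceptor markers higher, in every carboplatin library than in any selumetinib library. The 7 astrocyte markers took at least 1.08% of the counts with carboplatin and at most 0.996% with selumetinib. Neuron markers took at most 0.0348% with carboplatin and at least 0.0387% with selumetinib. For both lists selumetinib 3 was the selumetinib library nearest to carboplatin. The part of these 5 marker lists in these values was not tested.

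**Figure D4:**
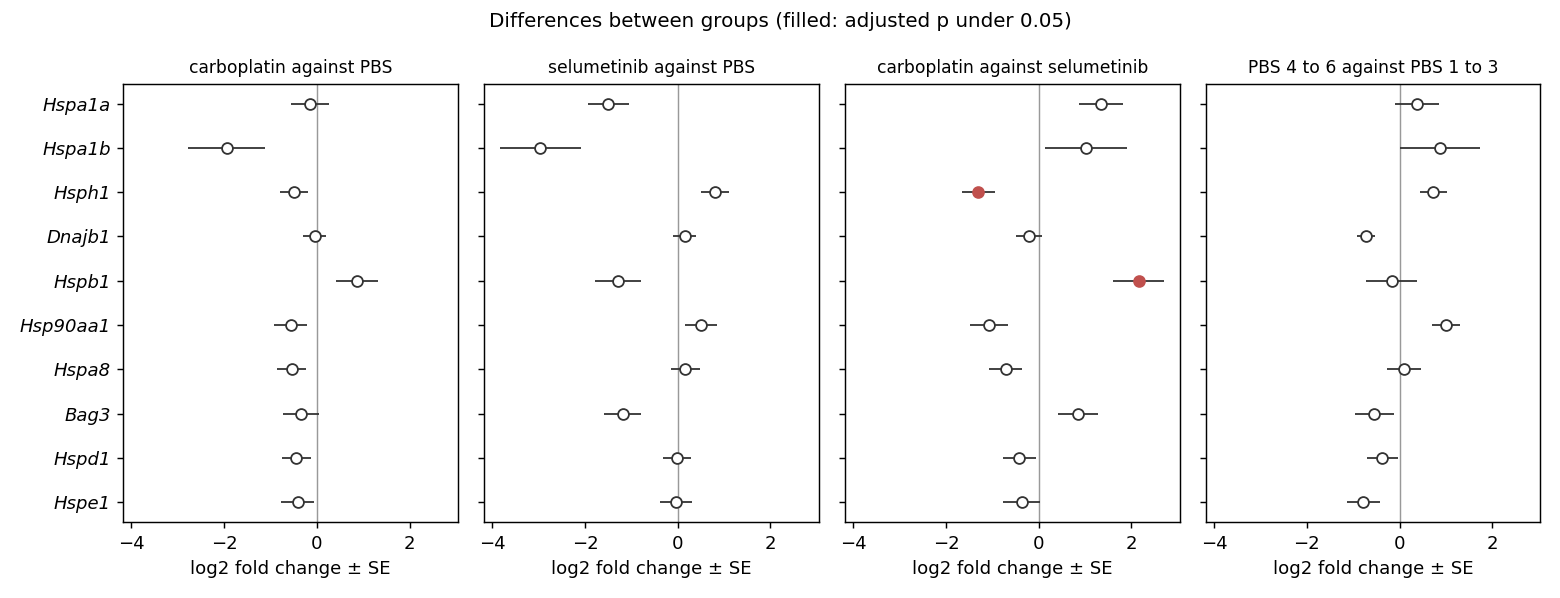
Log2 fold change ± SE of the 10 genes in the 4 comparisons from edgeR (x axis; filled points: adjusted p under 0.05). Filled points are Hspb1 at 2.16 and Hsph1 at -1.30, both in carboplatin against selumetinib.

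The sets of PBS libraries, which share a treatment, were compared to see how far controls differ among themselves. Of the 10 genes 0 passed, against 0.00545% of all genes (1 gene). DESeq2 called 2, against 3.36% of all genes with an adjusted p, and limma voom with quality weights 2, against 0.354%. With p unadjusted and under 0.05 there were 4, against 15.9% of all genes. PBS 4 to 6 and PBS 1 to 3 lay apart for 3 of the 10, against 22.6% of all genes. Hsp90aa1 was 2.00-fold higher in PBS 4 to 6 (1.00 ± 0.29, edgeR, adjusted p = 0.224), Hsph1 was higher by 0.73 ± 0.28 (adjusted p = 0.269), and Dnajb1 was lower (-0.72 ± 0.19, adjusted p = 0.212). The median log2 fold change was -0.04, equal to that over all genes at this rounding. For Hsp90aa1 this difference of 1.00 within the controls stands beside one of -1.07 between the drugs, or -0.57 without selumetinib 1 and 2. Red blood cell markers were higher, and muscle and photoreceptor markers lower, in each of PBS 4 to 6 than in any of PBS 1 to 3. Photoreceptor markers were near the floor in PBS 1 and in PBS 4 to 6. The part of these markers in these values was not tested.

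Genes of other chaperones, cochaperones, heat shock factors and mitochondrial proteases were taken from fixed lists, 63 in all. In carboplatin against PBS 0 rose and 1 fell, or 1 of 63 beside 2.09% of all genes. Hspa4 (another HSP110 family nucleotide exchange factor) fell from 176 ± 14.0 CPM (SD, n = 6) to 122 ± 8.84 CPM (SD, n = 3), with a log2 fold change of -0.53 ± 0.12 (edgeR, adjusted p = 0.0432). This call was lost without any 1 of PBS 2, 4, 5 or 6, of the 3 carboplatin libraries or of selumetinib 1 or 2, with values between -0.58 and -0.48. In selumetinib against PBS 0 rose and 0 fell, while 9 were higher and 5 lower when p was not adjusted (under 0.05), 14 of 63 beside 24.0% of all genes. The smallest p belonged to Hspa12a, an atypical HSP70 (0.93 ± 0.19, adjusted p = 0.0884), and Bag4 (1.05 ± 0.23, adjusted p = 0.0884), both highest in selumetinib 1 and 2. In carboplatin against selumetinib 1 rose and 4 fell, beside 5.65% and 8.35% of all genes. In PBS 4 to 6 against PBS 1 to 3 0 passed, with 3 higher and 14 lower at p under 0.05 before adjustment, beside 3.60% and 12.3% of all genes. DESeq2 called 4, 6, 15 and 2 of the 63 in the order of these comparisons, beside 8.99%, 13.7%, 26.9% and 3.36% of all genes. Limma voom with quality weights called 28, 34, 41 and 2, beside 29.6%, 55.3%, 58.6% and 0.354% of all genes. Median log2 fold changes of the 63 were -0.17, 0.0044, -0.17 and -0.21 in the order of these comparisons.

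Among the 5 that differed between the drugs was Hspb8, a small heat shock protein that works with Bag3. It was at 312, 366 and 347 CPM with carboplatin and at 66.4, 59.0 and 161 CPM with selumetinib, and at 161 to 297 CPM in PBS. The carboplatin libraries were above all PBS libraries, and selumetinib 1 and 2 below them. Its log2 fold change between the drugs was 1.84 ± 0.36 (edgeR, adjusted p = 0.0152). The 4 that were lower with carboplatin were Hspa4 (-0.69 ± 0.13, adjusted p = 0.0137), Chordc1 and Stip1, cochaperones of HSP90 (-1.05 ± 0.25 and -0.99 ± 0.27, adjusted p = 0.0258 and 0.0388), and the factor Hsf2 (-0.68 ± 0.18, adjusted p = 0.0350). Each of these 5 calls was lost without any 1 of carboplatin 1, carboplatin 3, selumetinib 1 or selumetinib 2. Stip1 was also lost without PBS 5 or PBS 6, and all but Hspa4 without carboplatin 2. With PBS 1, selumetinib 1 and selumetinib 2 left out together, 1 of the 63 passed, Hspb8, beside 2.67% of all genes.

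The master regulator Hsf1 was at 20.5 to 58.2 CPM in PBS, 25 to 27.5 CPM with carboplatin and 29.9 to 35.8 CPM with selumetinib, with PBS 1 highest. Its log2 fold change was -0.31 ± 0.27 for carboplatin and 0.02 ± 0.27 for selumetinib against PBS (edgeR, adjusted p = 0.614 and 0.970). Hsp90ab1, the constitutive HSP90, was at 987 to 1827 CPM in PBS, 940 to 1098 CPM with carboplatin and 1096 to 1285 CPM with selumetinib, and its values were -0.41 ± 0.20 and -0.13 ± 0.20 (adjusted p = 0.343 and 0.698). Cryab, an abundant small heat shock protein of glia, was at 449 to 1099 CPM in PBS, 372 to 560 CPM with carboplatin and 174 to 517 CPM with selumetinib, at -0.43 ± 0.38 and -0.94 ± 0.39 (adjusted p = 0.610 and 0.179). For Cryab, PBS 1 was highest and selumetinib 1 and 2 lowest, as for Bag3. Of the other small heat shock genes, Hspb6 was at 1428 CPM and Hspb7 at 170 CPM in PBS 1, the library with the most muscle markers, and at most 100.2 and 8.60 CPM elsewhere.

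**Figure D5:**
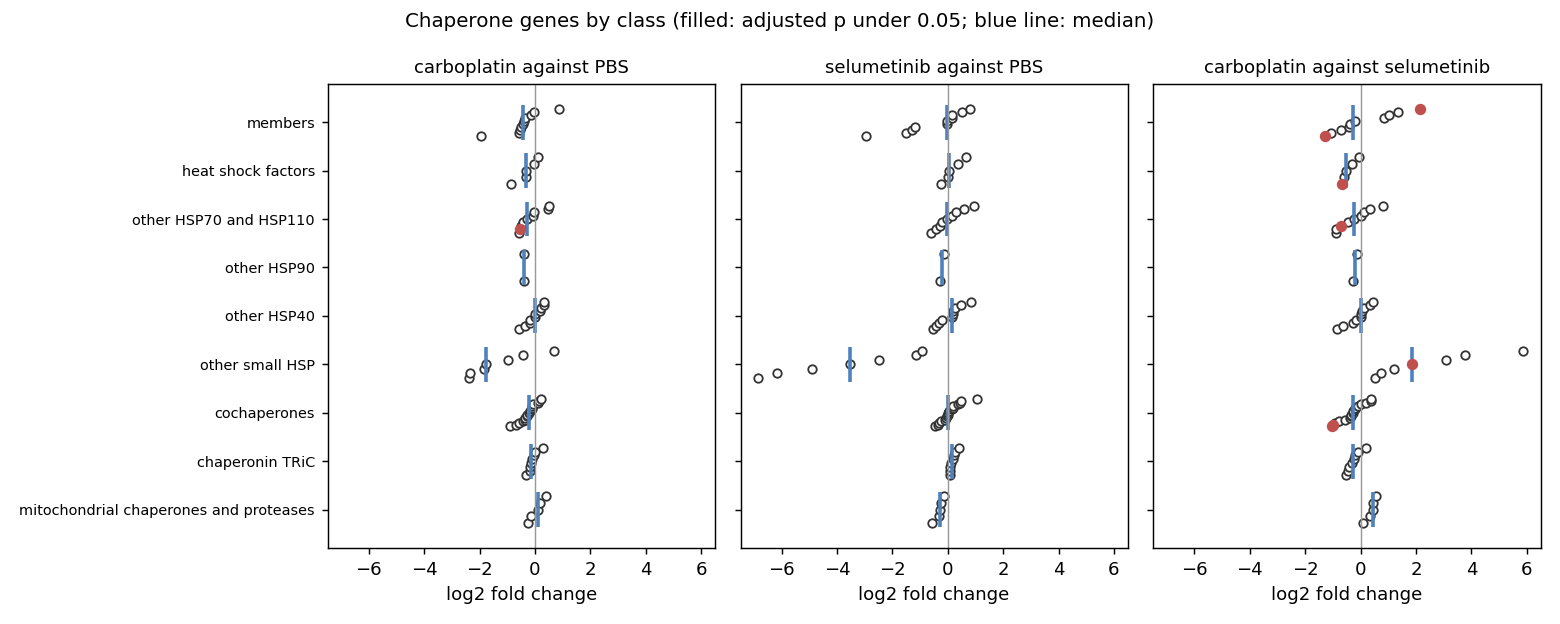
Log2 fold changes of the 10 genes and of 63 other chaperone, heat shock factor and protease genes by class in 3 comparisons (x axis; each point is a gene, filled: adjusted p under 0.05 in edgeR, blue line: median of the class). The other small heat shock genes spread widest, and the filled points are Hspa4 against PBS and Hspb1, Hsph1, Hspb8, Hspa4, Chordc1, Stip1 and Hsf2 between the drugs.

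Genes that mark other stress were read beside these. Cirbp and Rbm3, RNA-binding proteins that are induced by mild cold, were higher with carboplatin. Cirbp rose from 72.2 ± 16.2 CPM (SD, n = 6) to 144 ± 32.7 CPM (SD, n = 3) against PBS, a log2 fold change of 0.99 ± 0.21 (edgeR, adjusted p = 0.0366). The call was lost without any 1 of PBS 4, PBS 5, PBS 6, carboplatin 1, carboplatin 3, selumetinib 1 or selumetinib 2, with values between 0.86 and 1.18. The PBS mean of Cirbp pools 71.9 to 92.4 CPM in PBS 1 to 3 with 51.4 to 68.7 CPM in PBS 4 to 6. Between these sets its log2 fold change was -0.50 ± 0.21 (edgeR, adjusted p = 0.288). Rbm3 was at 146, 120 and 134 CPM with carboplatin, 72.7 to 108 CPM in PBS 1 to 3, 35.6 to 43.2 CPM in PBS 4 to 6 and 38.7 to 40.5 CPM with selumetinib. Its log2 fold change was 1.07 ± 0.32 against PBS (adjusted p = 0.120) and 1.75 ± 0.40 against selumetinib (adjusted p = 0.0219, lost without any 1 of the carboplatin libraries or of selumetinib 1 or 2). Between the sets of PBS libraries it was -1.19 ± 0.16 (adjusted p = 0.0783).

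Of 21 immediate early genes, which cells switch on within minutes of a stimulus, 6 rose (Jund, Zfp36, Klf6, Btg2, Jun and Gadd45b) and 1 fell (Arc) in carboplatin against selumetinib, beside 5.65% and 8.35% of all genes. Arc was at 2.36, 5.18 and 2.57 CPM with carboplatin and 13.3 to 32.3 CPM in PBS, and it fell against PBS by 2.71 on the log2 scale (edgeR, adjusted p = 0.00606), a call lost without carboplatin 3. The calls between the drugs were each lost without carboplatin 1 or carboplatin 3, and all but that of Arc without selumetinib 1 or selumetinib 2. Btg2, Klf6, Jun and Gadd45b were also lost without carboplatin 2, Jun without PBS 6, and Gadd45b without PBS 2, 4, 5 or 6. In selumetinib against PBS 0 passed, with 13 lower at p under 0.05 before adjustment, beside 1835 of the 18344 genes tested. The part of the immediate early genes in the heat shock levels was not tested.

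The genes most like the 10 were found by Pearson's r over the 12 libraries between log2 CPM and the mean of the 10 standardised log2 levels, among 13436 genes. They were Ahsa1 (r = 0.939), an activator of HSP90, then Arl1 (0.937), Nusap1 (0.936), Uso1 (0.923) and Ccnk (0.920). All 5 were highest in PBS 1, as is the mean of the 10. Ahsa1 was at 126 CPM there and at most 94.7 CPM elsewhere. Of the 10 genes themselves, Hspd1 (0.905) and Hspa8 (0.827) followed the mean most closely, and Hsp90aa1 did not (-0.19). These r values share libraries and depth and are a description.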

How the data were processed

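Optic nerve poly(A) RNA was measured in 12 libraries (PBS 6, carboplatin 3, selumetinib 3, grouped by the treatment label). The authors deposited raw read counts per Ensembl gene. The build was mm10 and the tools named were STAR, HTSeq, Trimmomatic, FastQC and DESeq2, per the submitters' processing notes. Versions, annotation release and strand setting are not given in the sources used here. Totals ran from 21793052 to 33375754 counts, which bounds counting error only.

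Genes were kept with edgeR's filterByExpr (minimum count 10, minimum total 15), leaving 18344. Counts were tested with edgeR 4.0.16 in R 4.3.3 (TMM factors, robust quasi-likelihood fit, common dispersion 0.272), in 1 model of 3 groups over all 12 libraries, or of 4 groups with the PBS libraries split, at a Benjamini-Hochberg adjusted p under 0.05 over all genes tested. The SE is the absolute log2 fold change divided by the square root of the F statistic. Of the gene IDs 34490 were in GENCODE M21, which gave coordinates and exon lengths. Promoters came from RefSeq.

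The 10 genes and the lists were chosen with earlier results of these data known. The rule named all 10, list genes past the threshold in any comparison (up to 12 by p, and 3 by p where none passed), Hsf1, Cryab, Hsp90ab1, Cirbp and Rbm3, and the 5 genes most like the mean. Some genes it allows are not named, and Hspb6 and Hspb7 were named after their values were seen. Alternatives were DESeq2 1.42.0, limma voom (3.58.1), RLE factors, no filter, other sets of libraries and controls, a replicate term and each library left out. On simulated counts of 18079, 18077 and 18083 genes, 72, 67 and 62 of 100 genes changed 4-fold, and 21, 5 and 5 of 100 changed 2-fold, were recovered in carboplatin against PBS, selumetinib against PBS and carboplatin against selumetinib. False calls numbered 2, 2 and 5. Each gene was drawn on its own, so the simulated libraries hold no departures across many genes like those of PBS 1 or selumetinib 1 and 2.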

Additional observations from a re-analysis of the deposited data

Results flagged for a closer look

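Among the 6 PBS libraries, PBS 1 lay far from the others for 3 of the 10 genes, by the gap to its nearest neighbour relative to the range of the group. Bag3 was at 155 CPM in PBS 1 and at 47.8 to 66.2 CPM in the other 5. Hspd1 was at 291 CPM against 105 to 134 CPM, and Hspe1 at 159 CPM against 50.9 to 62.1 CPM. Chance flags about 1 in 20 such groups where log2 values are normally distributed. The 3 flags share 1 library, so they are not independent of each other. PBS 1 also held 6.33% skeletal muscle markers, and the part of these in the 3 levels was not tested.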

How the results depend on the processing

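Of 840 log2 fold changes of the 10 genes under alternative settings, 55 turned sign, 16 lost and 37 gained their call, and the cause was not tested. The lowest count of any of the 10 in a library was 113, for Hspa1b, so counting error is small beside the spread between libraries.

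For carboplatin against PBS, DESeq2 called 1574 genes. Limma voom with quality weights called 5423 genes and 4 of the 10, with Hspa1a at 0.10 and Dnajb1 at 0.30 (log2 fold change, here and below). With PBS 1, selumetinib 1 and selumetinib 2 left out, 3073 genes and 2 of the 10 passed, with Hspa1a at 0.033 and Dnajb1 at 0.099. PBS 1 to 3 as the controls gave 112 genes, Hspa1a at 0.053 and Hsp90aa1 at 0.020. PBS 4 to 6 as the controls gave Dnajb1 at 0.36 and Hspe1 at 0.032. PBS 2 and 3 as the controls, added after the data were seen, gave Hspa1a 0.93, Hspa1b 0.71, Hsph1 0.10, Hspa8 0.11, Bag3 0.13 and Hspd1 0.051, and Hsf1 0.15. Leaving out 1 library at a time gave 73 to 1941 genes, the most without PBS 1. Bag3 then ran from -0.44 to 0.0028, Dnajb1 from -0.14 to 0.11 and Hspa1a from -0.28 to 0.070.

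For selumetinib against PBS, DESeq2 called 2401 genes and 4 of the 10, with Hspd1 at 0.0014, and RLE factors gave Hspd1 at 0.0013. Limma voom called 10148 genes and 8 of the 10, with Hspd1 at 0.37 and Hspe1 at 0.50. With PBS 1, selumetinib 1 and selumetinib 2 left out, Hsph1 was -0.077, Dnajb1 -0.0080, Hsp90aa1 -0.18, Hspa8 -0.27 and Cryab 0.036. With selumetinib 1 and 2 left out, added after the data were seen, the values of the first 4 genes were -0.046, -0.17, -0.015 and -0.44. These fits left 1 selumetinib library, assumed to vary like the others. PBS 1 to 3 as the controls gave Dnajb1 at -0.16 and Hsf1 at -0.10, and PBS 4 to 6 gave Hspd1 at 0.17 and Hspe1 at 0.40. Leaving out 1 library at a time gave 0 to 4089 genes and 0 to 3 of the 10, the most without selumetinib 3. Hspd1 ran from -0.11 to 0.28, Hspe1 from -0.12 to 0.35 and Hsf1 from -0.044 to 0.27.

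For carboplatin against selumetinib, DESeq2 called 4714 genes and 4 of the 10, limma voom 10749 and 8, and a fit of only the groups compared 4 of the 10. Leaving out PBS 1, selumetinib 1 and selumetinib 2 gave 516 genes and 0 of the 10, and leaving out selumetinib 1 and 2 gave 5 and 0. Dnajb1 was 0.11 in both. Leaving out 1 library at a time gave 134 to 5974 genes and 0 to 6 of the 10, the most without PBS 1.

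For PBS 4 to 6 against PBS 1 to 3, DESeq2 called 599 genes and 2 of the 10. Limma voom called 65 and 2, with Hspb1 at 0.61, Bag3 at 0.094 and Hspd1 at 0.24. No filter gave 2 genes, a fit of only the groups compared 0, and leaving out selumetinib 1 and 2 gave 0. With PBS 1, selumetinib 1 and selumetinib 2 left out, 9 genes passed, with Hspb1 at 0.65, Bag3 at 0.15 and Hspd1 at 0.27. Leaving out 1 library at a time gave 0 to 84 genes. Bag3 ran from -0.79 to 0.17, Hspa8 from -0.13 to 0.69, Hspb1 from -0.46 to 0.67 and Hspd1 from -0.62 to 0.29.

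The deviations of same-numbered libraries correlated at -0.14 to 0.30 over 9 pairs, and those of differently numbered libraries at -0.38 to 0.33. These ranges overlap and rest on few libraries per group, so they cannot decide whether the replicate numbers of the titles pair the libraries. With the number as a replicate block, each PBS library whose number no drug library shares has a term of its own. Such libraries then add nothing to the comparisons with PBS. The fit thus has fewer controls and more terms than the main fit, and the part of pairing in its results was not tested. In it, carboplatin against PBS gave 5 genes, Hspa1a at 0.23 and Hsp90aa1 at 0.061. Selumetinib against PBS gave 2 genes and Dnajb1 at -0.15, and carboplatin against selumetinib gave 50 genes and 0 of the 10. The calls of Hspa4, Cirbp and Arc against PBS and, between the drugs, of every other gene outside the 10 named as passing apart from Rbm3 were also lost with the block.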
